A study of Drosophila melanogaster with 8 samples.

Results

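Pore-forming subunits of voltage-gated sodium, calcium and potassium channels were compared between heads of wild-type flies and of flies whose Adar RNA-editing enzyme is inactive. The genes were chosen by name, from a list of 10 FlyBase symbols (para, cac, Ca-alpha1D, Sh, Shab, Shal, Shaw, eag, sei and slo), and no measured value entered that rule, although the list was drawn up with earlier results of these data known. Of the 10, 9 were found by FlyBase identifier among the 14622 identifiers of the expression table. The current identifier of para (FBgn0285944), which encodes the neuronal sodium channel, matched none of them, and para was not analysed here. RNA-seq was performed on 4 libraries of the EA mutant and 4 libraries of wild type (WT). EA flies had the genotype y, sc, Adar E374A, a point mutation made by CRISPR that inactivates the deaminase while the protein is retained (a synonymous base change lies beside it), and the study's methods describe the stock as backcrossed to white Canton-S. WT flies were white Canton-S, whereas the EA label names no white allele, so whether EA flies carried it is not given. The Adar mutation thus cannot be told apart here from the y, sc background or another strain difference between EA and WT flies. All were 3-day-old males grown at 18 °C, and whole heads were used, so neurons, glia, photoreceptors, muscle and fat body were measured together.

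Voltage-gated channels open when the membrane depolarizes. Sodium and calcium channels carry current into the neuron, which drives action potentials and transmitter release, and potassium channels carry current out, which ends the action potential and sets firing rate. Transcripts of many of these channels are edited by ADAR in fly neurons, often at codons for conserved residues, and loss of editing in flies disturbs locomotion and behaviour. Editing alters bases within a transcript, so read counts per gene measure how much transcript there was and not how it was edited.

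Of the 9 channel genes, 0 differed between EA and WT at an adjusted p under 0.05 (limma, fitted to log2 values of the normalized count with 1 added, with Benjamini-Hochberg adjustment over 10347 genes). Over all genes tested, 125 passed, which is 1.21%. At an unadjusted p under 0.05 there was 1 channel gene of 9, Shab, beside 12.7% of all genes tested. The count was also 0 with edgeR and with voom weights, which called 126 and 92 genes over the whole table. It was 1 (Shab) with DESeq2, which called 5.16% of all genes. The log2 fold change of EA over WT was above 0 for 7 of the 9 and below 0 for 2, with a median of 0.12 beside -0.003 over all genes tested. In 1 of the 9, again Shab, all EA libraries lay above all WT libraries. Groups that did not overlap were seen in 7.99% of all genes tested.

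The libraries were compared with each other first. EA libraries held 12517490 to 24342035 reads in total and WT libraries 9930607 to 19173154, and each channel gene had between 513 and 29523 reads in every library. Adar, the mutated gene, had normalized counts of 6850, 5013, 3534 and 4722 in the EA libraries and of 4539, 3679, 4458 and 3523 in the WT libraries (here and below in the order of replicates 1 to 4), and a limma adjusted p of 0.594. As its mutation changes a codon, this level does not check the labels. Of 16 neuron markers and 11 glia markers in the table none was at 0 in any library, and the same held for 14 eye markers and 9 muscle markers. The summed level of the eye markers was 394660 to 466139 over the EA libraries, above the 286350 to 353803 of WT, and 13 of the 14 had a log2 fold change above 0, of which 3 passed the limma threshold. The sum of 7 fat body markers was 53741 to 104436 in EA libraries against 33297 to 45890, but it was made up almost wholly of apolpp (named after its values were seen), 0 of the 5 tested passed, 3 had a log2 fold change above 0 and 2 below, and the limma adjusted p of apolpp was 0.0569. The part of eye and fat body RNA in the channel levels was not tested. Among all genes called, 68 of 125 were higher in EA, and 118 of 158 when libraries were scaled to their total reads. The labels do not say whether the libraries of a group came from separate cultures, so the p-values measure the spread between these libraries.

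Shab encodes a delayed rectifier potassium channel, the fly member of the Kv2 family, which carries much of the sustained potassium current of neurons and muscle. The gene (FBgn0262593) lies on chromosome 3L from 2895017 to 2959579 (BDGP6.54). Its normalized read counts were 18736, 17270, 9366 and 16940 in the EA libraries. In the WT libraries they were 7512, 5842, 9294 and 4462. EA replicates 1, 2 and 4 thus lay far above every WT library, whereas EA replicate 3 exceeded WT replicate 3 by only 1.01-fold. The EA mean was 15578 ± 4214 and the WT mean 6777 ± 2090 (SD, n = 4).

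On the log2 scale the difference of Shab was 1.20 ± 0.27 (SE, n = 4 per group, as for all differences below), which is a 2.30-fold higher level in EA with a 95% interval of 1.52 to 3.48. The limma adjusted p was 0.0724, and the difference therefore did not pass the threshold. It passed without EA replicate 3 (log2 fold change 1.43, limma adjusted p = 0.0193), where 1.29% of all genes passed. It did not pass without any other single library, where the limma adjusted p ran up to 0.223. With DESeq2 the adjusted p of Shab was 3.11e-04, in a test that called 5.16% of all genes. When libraries were scaled to their total reads, the limma adjusted p was 0.0242, with 1.53% of all genes called. The direction was the same under all 21 alternatives, with a log2 fold change between 1.02 and 1.43. Shab passed the threshold in 6 of them and did not pass in 15.

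**Figure D1:**
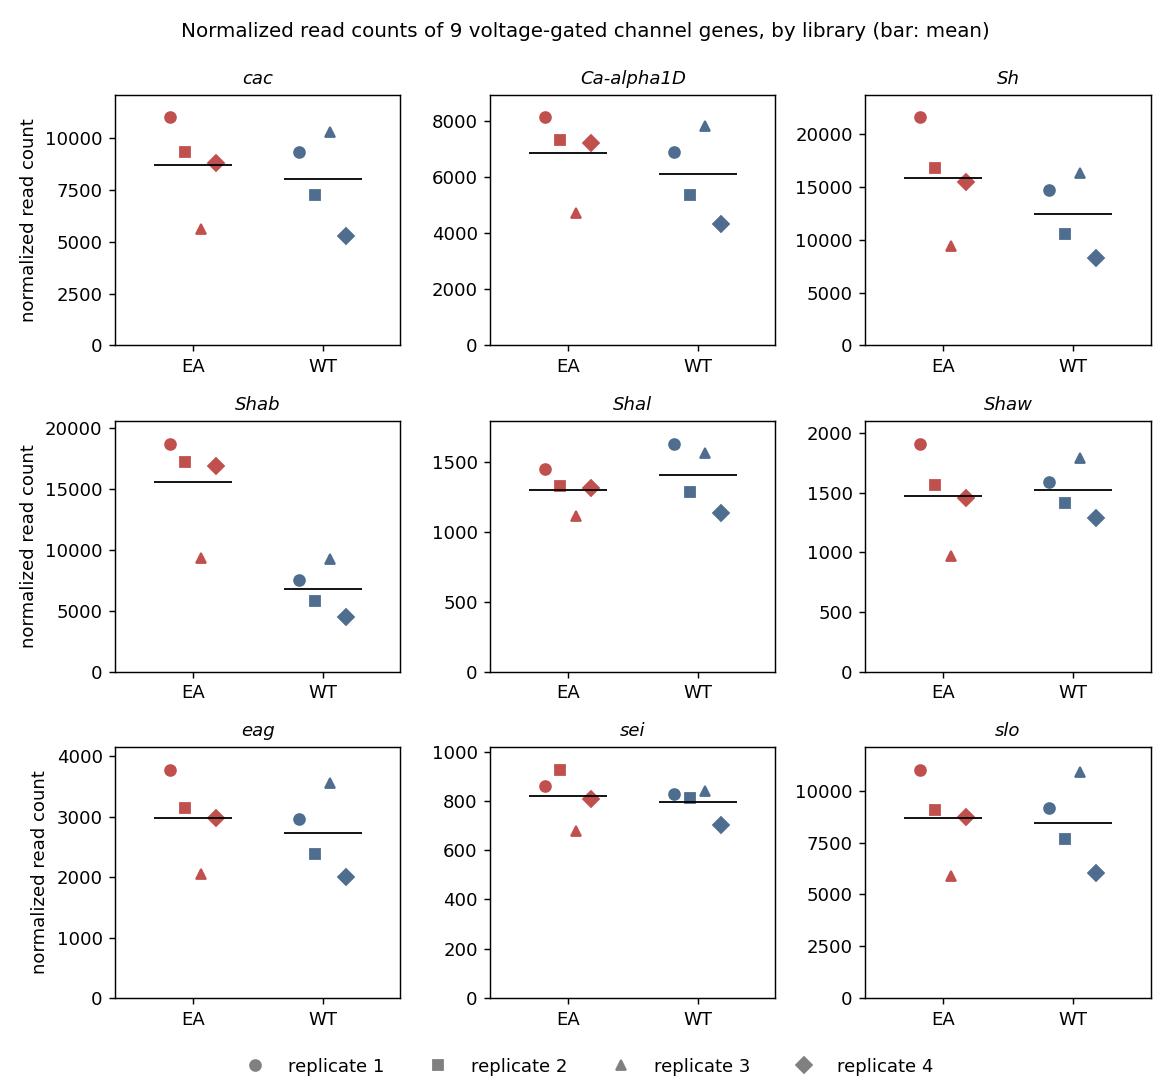
Normalized read counts (y axis, linear from 0) of 9 channel genes in EA and WT; each point is 1 library, the marker shape gives the replicate and the bar is the group mean. Shab has all 4 EA libraries above all 4 WT libraries, with EA replicate 3 (9366) close to WT replicate 3 (9294), while the groups overlap for the other 8 genes.

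The remaining 8 channels were grouped by the ion they carry. The calcium channel genes cac and Ca-alpha1D encode the presynaptic channel that triggers transmitter release and an L-type channel of neurons and muscle. Normalized counts of cac (FBgn0263111, X, 11931280 to 11985087) were 10989, 9320, 5613 and 8786 in EA and 9313, 7239, 10284 and 5262 in WT. The groups overlapped almost completely, and the log2 difference was 0.12 ± 0.25 (limma adjusted p = 0.910). Those of Ca-alpha1D (FBgn0001991, 2L, 16165831 to 16190540) were 8115, 7306, 4700 and 7207 in EA and 6887, 5338, 7809 and 4309 in WT. The groups again overlapped over most of their range, and the log2 difference was 0.17 ± 0.21 (limma adjusted p = 0.825). An annotated antisense RNA, asRNA:CR43806, shares 248 bases with the exons of Ca-alpha1D on the opposite strand, and whether reads were counted by strand is not given in the sources used here.

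Sh, Shal and Shaw are, with Shab, the founding members of the Kv channel families. Sh and Shal carry fast inactivating A-type currents, in axons and in cell bodies and dendrites respectively, and Shaw carries a current that is partly open near rest. Sh (FBgn0003380, X, 17924307 to 18063247) had normalized counts of 21578, 16755, 9408 and 15495 in EA and 14735, 10585, 16274 and 8257 in WT. EA replicate 1 was the highest library and WT replicate 4 the lowest, and the other libraries were mixed. Its log2 fold change of 0.33 ± 0.28 was the second highest of the 9 genes (limma adjusted p = 0.701).

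Shal (FBgn0005564, 3L, 19566851 to 19584568) had normalized counts of 1448, 1327, 1113 and 1315 in EA and 1631, 1288, 1561 and 1138 in WT. Shaw (FBgn0003386, 2L, 3718185 to 3729145) had 1911, 1565, 968 and 1454 in EA and 1586, 1418, 1790 and 1289 in WT. These were the genes with a log2 fold change below 0, at -0.10 ± 0.13 for Shal and -0.08 ± 0.19 for Shaw (limma adjusted p = 0.830 and 0.930). The spread within each group was wider than the difference between the groups, and without EA replicate 3 the difference of Shaw was 0.11, with the opposite sign.

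The ether-à-go-go family is represented by eag and by sei, the fly ERG channel, whose mutants are paralysed at high temperature. Normalized counts of eag (FBgn0000535, X, 14955477 to 15009989) were 3771, 3140, 2054 and 2970 in EA and 2963, 2378, 3553 and 1997 in WT (log2 difference 0.13 ± 0.21; limma adjusted p = 0.872), with WT replicate 3 above 3 of the EA libraries. Those of sei (FBgn0003353, 2R, 24047411 to 24053035) were 861, 926, 679 and 810 in EA and 827, 810, 838 and 702 in WT, the narrowest spread of the 9 genes. Its log2 difference was 0.04 ± 0.11 (limma adjusted p = 0.939). Exons of sei share 359 bases with gammaSnap1 and 119 with ppk29, both on the opposite strand, so without strand their reads and those of sei cannot be told apart there.

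The calcium-activated potassium channel slo, which opens on depolarization together with calcium entry, lies on 3R from 24662491 to 24711595 (FBgn0003429). Its normalized counts were 11014, 9056, 5892 and 8721 in EA and 9188, 7667, 10897 and 6056 in WT. The ranges were nearly the same in both groups, and the log2 difference was 0.04 ± 0.22 (limma adjusted p = 0.977). For the 8 channels other than Shab, the 95% interval of the fold of EA over WT included 1, and its width differed between genes. It was narrowest for sei (0.868 to 1.21), followed by Shal (0.762 to 1.14), and for Sh it reached from 0.820 to 1.93. The sign of the log2 fold change turned under at least 1 alternative for cac, Shaw, eag, sei and slo, and in none of the 21 for Sh, Shal and Ca-alpha1D.

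**Figure D2:**
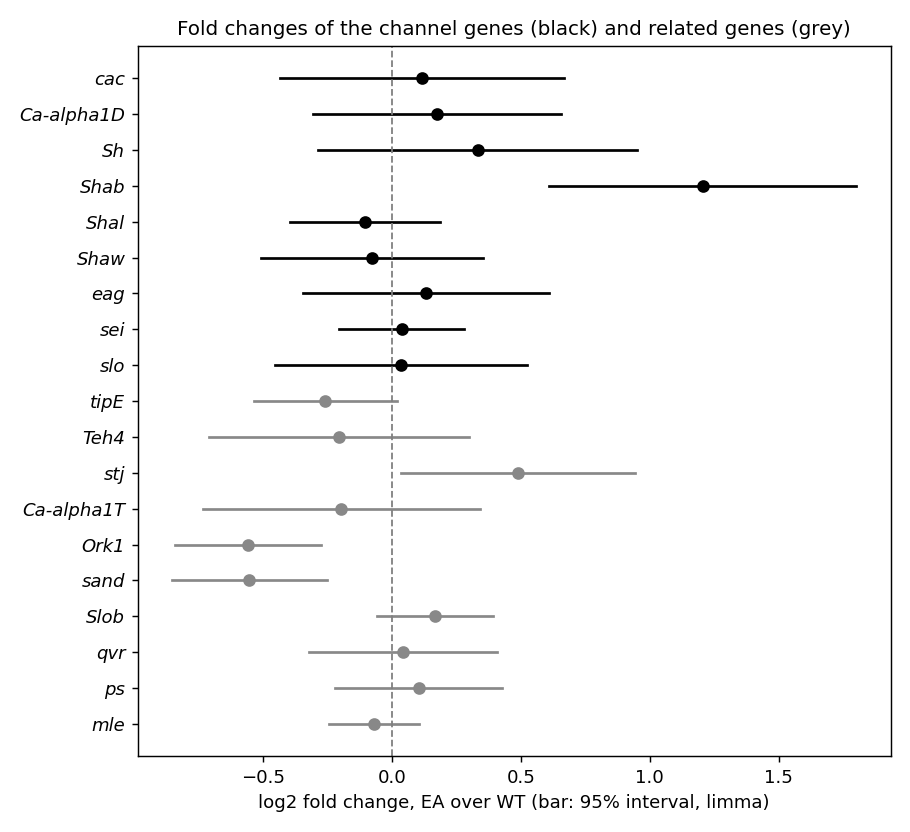
Log2 fold change of EA over WT (x axis) with its 95% interval from limma for the 9 channel genes (black) and 10 related genes (grey). For Shab it spans 0.61 to 1.80, the intervals of the other 8 channels include 0, those of Ork1 and sand lie below 0 and that of stj lies above 0.

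The channels varied together across libraries. EA replicate 3 was the lowest EA library for 9 of 9 genes and WT replicate 4 was the lowest WT library for 9 of 9. EA replicate 1 was the highest EA library for 8 of 9 genes, and WT replicate 3 was the highest WT library for 8 of 9. The share of all tested genes with the same order of libraries was not counted, so this order is not shown to be particular to channels. Averaged over the 8 channels other than Shab, the log2 level deviated from the mean of all libraries by 0.36, 0.16, -0.44 and 0.08 in the EA libraries and by 0.14, -0.15, 0.28 and -0.43 in the WT libraries. Each group thus held 1 library with low channel levels.

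The neuron marker mean was likewise lowest in EA replicate 3 and in WT replicate 4. Among WT libraries, however, it was highest in replicate 1, whereas the channel mean was highest in replicate 3. Over 16 neuron markers that include no channel of the list, the mean deviation was 0.33, 0.16, -0.32 and 0.04 in the EA libraries and 0.10, -0.13, 0.02 and -0.19 in the WT libraries. Single markers differed in WT replicate 4. There Gad1 had its highest WT count (7971) and unc-13 its lowest (19781), both named after their values were seen. Summed over the 16 markers, EA libraries had 168302 to 277193 normalized counts and WT libraries 173824 to 214279, so the groups overlapped. One marker of the list, named here after its values were seen, did not overlap: the synaptic vesicle calcium sensor Syt1 had 52157, 43944, 27080 and 40724 in the EA libraries and 23420, 19248, 23044 and 17284 in the WT libraries (log2 difference 0.95, limma adjusted p = 0.0557). Without it the sums were 141222 to 225036 in EA libraries and 156540 to 190859 in WT libraries. The mean of 11 glia markers was highest in EA replicate 3, at 0.14, and lowest in WT replicate 4, at -0.09, so it went against the channels in the former and with them in the latter. Among 238 other genes with at least 10 kb of exons the median deviation was -0.21 in EA replicate 3, -0.14 in WT replicate 4 and 0.21 in WT replicate 3, so long transcripts shifted as well. In whole heads, fewer neurons and less channel RNA per neuron cannot be told apart, and the part of either neuron content or transcript length in the channel levels was not tested.

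**Figure D3:**
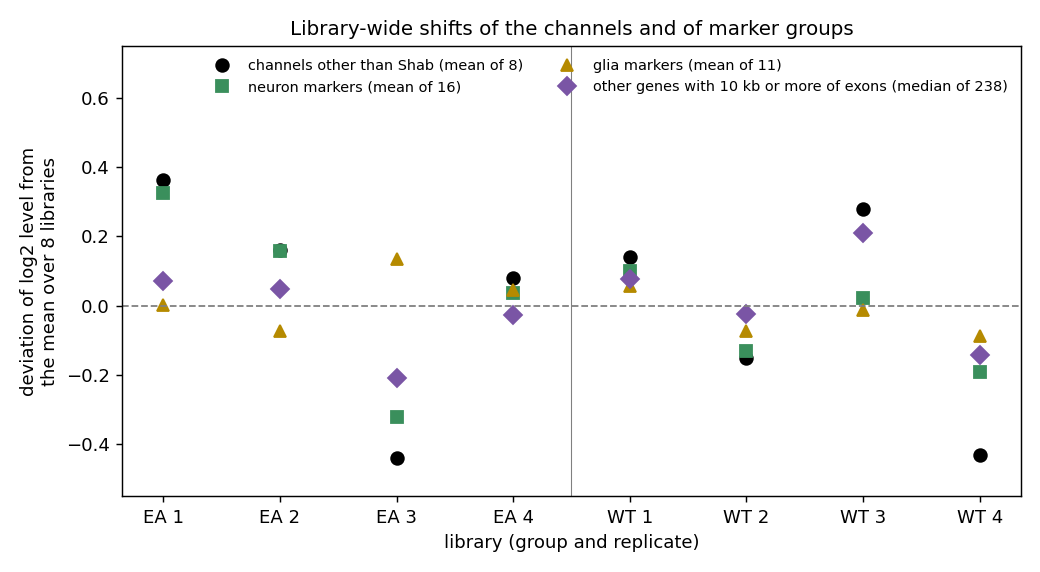
Deviation of the log2 level from the mean over 8 libraries (y axis) for each library (x axis); points are means over 8 channels, 16 neuron markers and 11 glia markers, and the median over 238 other long genes. The channel mean, the neuron marker mean and the long gene median are all low in EA 3 and WT 4. Single neuron markers differ in WT 4, and the glia marker mean is not low in EA 3.

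Because the shift was shared, Shab was set against the other channels of the same library. The log2 level of Shab exceeded the mean of the other 8 channels by 2.04, 2.12, 1.84 and 2.17 in the EA libraries. In the WT libraries it exceeded them by 0.94, 0.87, 1.11 and 0.76. On this scale the groups stood apart, with an EA mean of 2.04 ± 0.15 and a WT mean of 0.92 ± 0.15 (SD, n = 4), a difference of 1.12. EA replicate 3, which was close to WT on the scale of normalized counts, was here well above the highest WT library.

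Of all genes set against the same 8 channels, 2.58% had groups that did not overlap, and 97.2% had a smaller absolute difference than Shab. On normalized counts the share that did not overlap was 7.99%. Subtracting the channel mean adds its spread between libraries to genes that do not vary with the channels. The lower share on this scale therefore does not show how rare the separation of Shab is. For each of the other 8 channels the groups overlapped on this scale. The largest difference among them was 0.29 for Sh, followed by -0.21 for Shal and -0.18 for Shaw. No test was made on this scale, since it was chosen after the values were seen. In the fit with the neuron marker score of each library as a second term, the log2 difference of Shab was 1.02 (limma adjusted p = 0.00693). This fit called 4.86% of all genes, and Shab was the 1 gene of the 9 channels among them. With Syt1 left out of the score, a choice made after the data were seen, it was 1.12 (limma adjusted p = 0.00395), again the 1 channel called, beside 4.18% of all genes. Without both EA replicate 3 and WT replicate 4, likewise a choice made after the data were seen, the difference of Shab was 1.25 (limma adjusted p = 0.0102), and 1.1% of all genes passed. Both libraries were the lowest of their group for Shab itself, so this fit is not separate evidence of a difference.

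**Figure D4:**
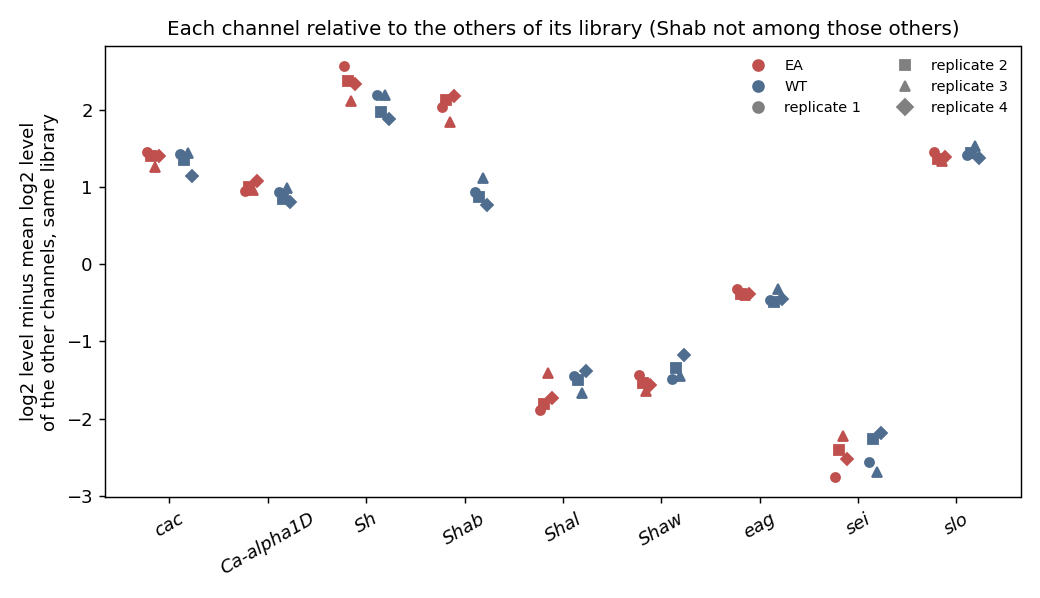
Log2 level of each channel minus the mean log2 level of the other channels in the same library (y axis), with Shab left out of that mean; each point is 1 library. The EA points of Shab span 1.84 to 2.17 and its WT points 0.76 to 1.11, and the groups overlap for the other 8 channels.

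Genes next to Shab had no difference of its size. Within 100 kb of it 12 other genes were tested, and their log2 fold changes ran from -0.33 to 0.19. Of these, 0 passed the limma threshold, beside 1.21% of all genes tested. The groups did not overlap in 1 of the 12, beside 7.99% of all genes tested. A local cause of the Shab difference was not tested. The 3 annotated genes inside the span of Shab share no exonic bases with it. Of the 9 channel genes, cac, Sh and eag lie on X, where 16.3% of the tested genes with a position lie.

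Levels were compared between channels per kilobase of exonic length, which was taken from the BDGP6.54 annotation. This length joins the exons of all annotated transcripts of a gene (17 for Sh, 23 for slo and 3 for sei). It can exceed the length of any 1 transcript, so the order depends in part on how many exons are annotated. In WT, slo was highest at 832 ± 204 normalized counts per kb, followed by cac (673 ± 188), Shab (597 ± 184), Ca-alpha1D (581 ± 149) and Sh (547 ± 162; all SD, n = 4). These 5 overlapped in range, and no neighbours in that order differed beyond their spread. A lower group held Shal at 305 ± 50.2, Shaw at 304 ± 43.3, eag at 256 ± 64.1 and sei at 242 ± 19.1 normalized counts per kb, again with overlapping ranges. In WT the lowest library of Sh (362 per kb) lay above the highest libraries of Shaw (358), Shal (354), eag and sei.

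In EA the order was led by Shab, at 1371 ± 371 normalized counts per kb (SD, n = 4), and slo followed at 854 ± 208. Their ranges overlapped, at 825 to 1649 for Shab and 580 to 1085 for slo. The other 7 channels ran from 728 ± 189 for cac to 250 ± 31.8 for sei, and Sh was at 693 ± 220, beside 547 ± 162 in WT. Shab thus held the third place among the 9 in WT and the first in EA, while Shaw, Shal, eag and sei held the last places in both genotypes.

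**Figure D5:**
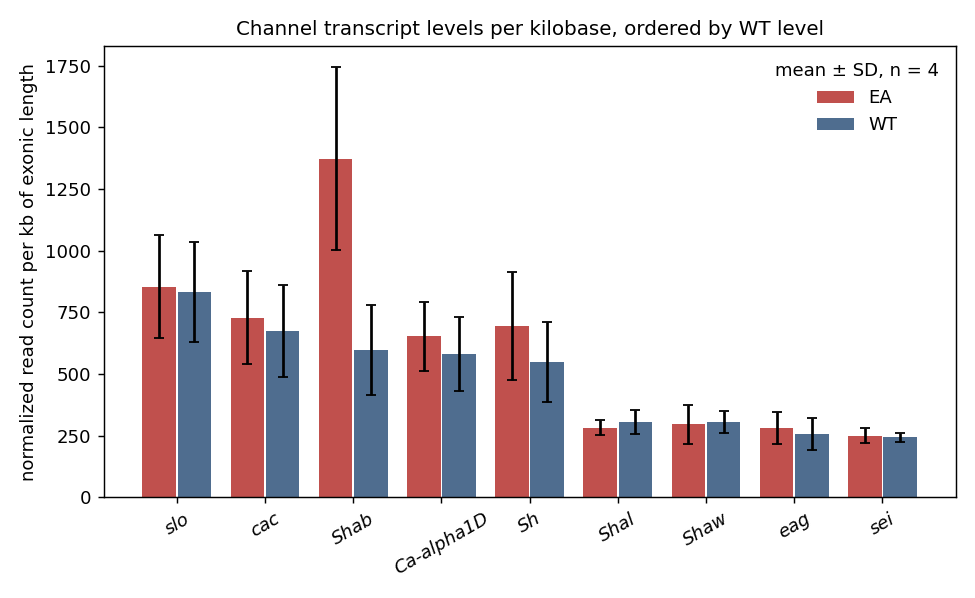
Normalized read count per kb of exonic length (y axis, from 0) for the 9 channels in the order of their WT level; bars are means and error bars SD of 4 libraries. Shab is at 1371 per kb in EA and at 597 in WT, and the error bars of the 2 groups overlap for the other 8 channels.

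The 9 channels were long genes with high read counts, and the longest of them had a wide spread between libraries. Their exonic length ran from 3.28 kb for sei to 22.8 kb for Sh, beside a median of 2.07 kb over all tested genes. Their mean normalized count lay between percentile 73.4 of the tested genes (sei) and percentile 99.1 (Sh). Long genes collect more reads, and per kb of exonic length the range was from percentile 68.9 (sei) to 93.3 (Shab). The within-group SD of the log2 level had a median of 0.37 over the channels and of 0.20 over all tested genes. It ran from 0.37 to 0.48 in the 6 channels with at least 10 kb of exons and from 0.16 to 0.33 in the 3 shorter ones, Shal, Shaw and sei.

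Other genes of the channel families and their partners were read from a list of 34, of which 33 were in the table and tested (Ca-beta, a calcium channel subunit, was not analysed here). None passed the threshold in limma or edgeR (0 of 33). At an unadjusted p under 0.05 there were 3 of 33, beside 12.7% of all genes, and 1 of 33 passed in DESeq2, beside 5.16%, so neither share exceeded that of all genes. The log2 fold change was above 0 for 12 and below 0 for 21, with a median of -0.02. In the fit with the neuron marker score 2 of 33 passed, both lower in EA, beside 4.86% of all genes, and with Syt1 left out of the score 1 of 33 passed, beside 4.18%.

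The group of 14 other potassium and hyperpolarization-activated channels had 5 log2 fold changes above 0 and 9 below. Its smallest adjusted p-values were those of Ork1 and sand, potassium channels that carry background leak current. Ork1 (FBgn0017561, X, 10878054 to 10891250) had normalized counts of 209, 209, 161 and 215 in EA and 257, 308, 332 and 270 in WT. All EA libraries lay below all WT libraries, at a log2 difference of -0.56 ± 0.13 (limma adjusted p = 0.0776). With DESeq2 its adjusted p was 0.00652, and with the neuron marker score as a second term the limma adjusted p was 0.0218. The related channel sand, known for a role in sleep, had 61.9, 51.9, 67.8 and 71.7 in EA and 88.7, 97.9, 94.9 and 89.3 in WT. Its groups also stood apart, at a log2 difference of -0.55 ± 0.13 (limma adjusted p = 0.0988). Groups that did not overlap were thus seen in 2 of the 33 related genes, a share no higher than the 7.99% of all genes tested.

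Among the 9 sodium channel relatives and partners, 3 had a log2 fold change above 0 and 6 below. The largest differences were in tipE, an auxiliary subunit that raises sodium current, and its homologue Teh4. Normalized counts of tipE were 1419, 1478, 1036 and 1192 in EA and 1684, 1550, 1513 and 1337 in WT, with overlapping groups. The log2 difference was -0.26 ± 0.12 for tipE and -0.20 ± 0.23 for Teh4 (limma adjusted p = 0.436 and 0.796). With the neuron marker score as a second term that of tipE was -0.34 (limma adjusted p = 0.0335), and with Syt1 left out of the score -0.29 (limma adjusted p = 0.0529). Of 4 calcium channel relatives and partners, 1 had a log2 fold change above 0. This was stj, an alpha2-delta subunit that brings cac to the synapse, which had 6328, 5996, 3973 and 5714 normalized counts in EA and 4277, 3614, 5155 and 2782 in WT. The ranges overlapped through EA replicate 3 and WT replicate 3, and the log2 difference was 0.49 ± 0.20 (limma adjusted p = 0.349). The T-type channel Ca-alpha1T followed with -0.19 ± 0.24 (limma adjusted p = 0.825).

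Partners of potassium channels showed smaller differences. Slob, which binds slo, had a log2 difference of 0.17 ± 0.10 and qvr, a regulator of Sh that is needed for sleep, one of 0.04 ± 0.16 (limma adjusted p = 0.554 and 0.956). Among RNA-binding regulators, the splicing factor ps had 0.10 ± 0.14 and the helicase mle, needed for correct splicing of edited para transcripts, -0.07 ± 0.08 (limma adjusted p = 0.847 and 0.800). Shab was thus the 1 channel gene of both lists with a difference of over 1 on the log2 scale.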

How the data were processed

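Gene-level RNA-seq values were taken from 1 deposited table for heads of 4 EA and 4 WT libraries. Per the labels, RNA was depleted of ribosomal RNA (although the molecule field reads polyA RNA) and sequenced as paired-end 75-bp reads. The submitters' processing notes name TopHat, featureCounts from Subread, DESeq2 and the builds dm3 and BDGP5, and no versions. The deposited values are a signal, namely read counts that the authors divided by 1 size factor per library, and columns of the authors' own test (fold change, its error, statistic and p-values) were not used. Division by the smallest step of each column returned whole reads for 100% of values (tolerance 0.001). Of the table's columns, 0 held a sample of no label.

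Symbols, positions and exonic lengths came from Ensembl release 115 (BDGP6.54), which matched 95.9% of identifiers. This differs from the build of the reads, so positions and lengths describe the annotation only. The main test was limma 3.58.1 (lmFit, eBayes with trend) in R 4.3.3 on log2 values with a pseudocount of 1 and a minimum mean of 10 normalized counts. Group was the sole model term. All tests were two-sided. Fold changes on this scale understate changes of low genes. Recovered reads were also tested with edgeR 4.0.16 (quasi-likelihood, on genes passing the same minimum), DESeq2 1.42.0 and voom. Scripts were tested on simulated data. Alternatives covered scaling, pseudocount, the minimum, the test, a replicate block, the neuron marker score and each library left out. Counting-error intervals are not given, since comparisons rest on the spread between libraries. The channel genes, lists and tests were chosen with earlier results of these data known. The genes named were the channels, Adar, and in each of 5 groups of related genes those that passed and the 2 with the largest absolute log2 fold change among those with a mean of at least 50. Marker lists were read as sums or mean log2 scores, and of 7 fat body markers 2 (Yp1 and Fbp1) were at 0 in some library.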

Additional observations from a re-analysis of the deposited data

How the results depend on the processing

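The number of genes called over the whole table was 125, and it was 532 with DESeq2, 503 with the neuron marker score as a second term, 432 with Syt1 left out of that score (chosen after the data were seen), 26 with the replicate number as a block and 79 with a minimum mean of 50, where fewer genes were tested. With 1 library left out it ran from 36 (without WT replicate 2) to 184 (without EA replicate 2). It was also below 125 by over 1.5 times without EA replicate 1 (55), EA replicate 4 (53), WT replicate 3 (61) and WT replicate 4 (78). The count of channels called was 0, and it was 1 (Shab) with DESeq2, with the neuron marker score including or excluding Syt1, with scaling to total reads, and without both EA replicate 3 and WT replicate 4. With 1 library left out it ran from 0 to 1, the 1 being without EA replicate 3. The count of related genes called was 0, and it was 1 with DESeq2, 2 with the neuron marker score and 1 with that score without Syt1. With 1 library left out it was 0 in each of 8 fits.

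With the neuron marker score the log2 fold change was -0.0589 for cac, -0.12 for slo, -0.019 for eag and -0.0248 for sei, a turn of sign for each, and with Syt1 left out of the score only slo turned, to -0.0328. That of Shaw turned to 0.0127 with scaling to total reads and to 0.04 without both EA replicate 3 and WT replicate 4. With 1 library left out it ran from -0.0702 to 0.31 for cac, from -0.11 to 0.21 for slo, from -0.0048 to 0.30 for eag, from -0.0238 to 0.12 for sei and from -0.21 to 0.11 for Shaw. The cause of these changes was not tested. The median over the 9 channels stayed between -0.02 and 0.30 in 21 alternatives.

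Same-numbered EA and WT libraries did not deviate together, with correlations of 0.19, -0.19, -0.23 and -0.12 across genes for numbers 1 to 4, so the numbers were not used as pairs. With the replicate block Shab had a log2 fold change of 1.20 and an adjusted p of 0.222 (limma), and 0 channels were called. What the data can resolve was set by the spread between 4 libraries rather than by depth, as each channel had at least 513 reads in every library.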
